A study of Mus musculus with 69 samples.

Results

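The genes described here serve MHC class I antigen presentation: H2-K1 and H2-D1, B2m, Tap1, Tap2, Tapbp, Psmb8, Psmb9, Psmb10 and Nlrc5. The 10 members were chosen by name from the 24309 gene symbols shared by the 3 tables of gene read counts, and all 10 passed the filter on low counts in each comparison. MHC class I molecules carry short peptides from inside the cell to its surface, where CD8+ T cells read them, and they are present on nearly all nucleated cells, T cells included. A heavy chain pairs with β2-microglobulin in the endoplasmic reticulum and takes up peptides that the proteasome has cut and a transporter has pumped in. Interferons raise many of these genes together, and the cytokines IL-7 and IL-15, which keep T cells alive, signal mainly through STAT5.

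The study compared mice with different doses of the STAT5 paralogs, transcription factors encoded by the neighbouring genes Stat5a and Stat5b. WT mice carried both alleles of both genes (Stat5a+/+ Stat5b+/+), AAB mice kept 1 Stat5b allele (Stat5a-/- Stat5b+/-) and BBA mice kept 1 Stat5a allele (Stat5a+/- Stat5b-/-). The alleles were lost in the germline and so in every cell type. The strains were described as inbred to C57BL/6. CD8+ T cells were sorted from pooled lymph nodes and spleen as naive (Tnv), central memory (Tcm) and effector memory (Tem) cells and, per the study's methods, lysed right after sorting (no cytokine) or kept in culture, 12 to 16 h per the labels, with IL-7 (Tnv and Tcm) or IL-15. This gave 48 libraries, 2 for each of 8 conditions and 3 genotypes. A set of 15 CD4+ Tnv libraries had no cytokine (3 WT, 2 AAB, 2 BBA) or IL-7 (3 WT, 2 AAB, 3 BBA). In a last set of 4 libraries, cells labelled as activated AAB CD8+ T cells had received a retrovirus with constitutively active STAT5A (CA-STAT5A) or an empty vector, 2 of each. Replicates are separate mice per the study's methods.

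Total counts on genes per library were 5926139 to 25612758 in the CD8 table, 6705004 to 34118295 in the CD4 table and 11020965 to 16516525 in the retrovirus table. The unit of level is CPM, the count of a gene relative to its library's total after correction by the trimmed mean of M-values (TMM). Stat5a was at 0.98 to 5.13 CPM in the AAB CD8 libraries against 32.2 to 110 in WT. Stat5b was at 49.0 to 87.4 CPM in BBA against 167 to 360 in WT. Stat5a in the BBA CD8 libraries, at 31.1 to 51.6 CPM, overlapped WT. WT CD8 Tnv IL-7 library 2, at 32.2 CPM, lay below both BBA libraries of its condition (45.6 and 43.0 CPM). WT CD4 library 3 lay below all BBA libraries of its condition, at 39.4 CPM without cytokine and 33.8 CPM with IL-7. The cause was not tested, and these libraries were kept as WT. The libraries labelled as retrovirally transduced CD8+ T cells stood apart from that label. Their Cd8a was at 1.42 to 3.14 CPM and Cd8b1 at 0.308 to 1.57 CPM, whereas the NK cell gene Ncr1 was at 1143 to 1442 CPM. The 6 CD8 Tnv libraries with IL-7 had Y-linked transcripts and the 12 other CD8 Tnv libraries did not, so IL-7 and sex cannot be told apart in CD8 Tnv.

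The peptide-loading genes lie close together in the mouse MHC. In the GENCODE annotation of GRCm38, Psmb9 (chr17:34181987-34187764), Tap1 (chr17:34187553-34197225), Psmb8 (chr17:34197721-34201454) and Tap2 (chr17:34203527-34216321) follow one another on chromosome 17, and Psmb9, on the minus strand, overlaps the start of Tap1. Tapbp (chr17:33915899-33929292) and H2-K1 (chr17:33996017-34000347) lie on one side of this cluster and H2-D1 (chr17:35262730-35267499) on the other. B2m (chr2:122147686-122153083), Nlrc5 (chr8:94434356-94527272) and Psmb10 (chr8:105935735-105938444) are outside the MHC. Whether the authors' counting used strand is not given in the sources used here, so reads in the overlap of Psmb9 and Tap1 could not be told apart. Of all 50-base windows in the transcripts of the heavy chains, 12.8% in H2-D1 and 9.63% in H2-K1 also occur in another gene, most often H2-Q1 and H2-Q10 respectively. Levels of these 2 genes are therefore uncertain, by an amount that these shares do not give. Tapbp shared 2.87%, Tap2 0.655%, Tap1 0.442% and Psmb8 0.227% of its windows, and B2m, Psmb9, Psmb10 and Nlrc5 shared none.

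Promoter windows from RefSeq (GRCm38.p6), from 250 bases before to 50 after the start, were found for 8 members and not for Tap2 or Nlrc5. They were searched on both strands for the letters to which STAT dimers bind (GAS, TTCNNNGAA) and for the core of the interferon-stimulated response element (ISRE, GAAA and GAAA with any 2 bases between them). Both matches found are shown, with the motif in capitals, because the 2 genes belong to the pathway whose cytokine response is described next. The first is 139 bases before the start of B2m (chr2:122147538-122147567, plus strand) and the second 97 bases before the RefSeq start of Psmb8 (chr17:34198088-34198117, plus strand). By the GENCODE span given above, the Psmb8 window lies inside the gene and not before it.
B2m: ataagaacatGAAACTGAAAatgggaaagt
Psmb8: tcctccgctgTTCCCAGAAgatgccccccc
The ISRE core was present in 3.44% and the GAS letters in 8.3% of 32851 promoter windows of the same length. A match describes the sequence and is not a bound site.

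Transcripts of the light chain and of the H2-K1 heavy chain were the most abundant members per unit of length. In the 48 CD8 libraries the median level was 2615 CPM per kb of exon for B2m, which encodes β2-microglobulin, and 1158 CPM per kb for H2-K1. H2-D1 followed at 193 CPM per kb, and Tapbp, which encodes tapasin, the bridge between the heavy chain and the transporter, at 140 CPM per kb. The immunoproteasome subunit genes Psmb8 and Psmb10 had medians of 108 and 95.7, the transporter genes Tap2 and Tap1 93.5 and 80.9, Nlrc5, the transactivator of class I genes, 60.3 and the immunoproteasome subunit gene Psmb9 39.9 CPM per kb. B2m, H2-K1, H2-D1 and Tapbp had the highest medians in all 3 tables, in this order. The middle of the order is not well separated: the range over CD8 libraries was 80.7 to 212 CPM per kb for Tapbp and 56.4 to 162 for Psmb8, and the ranges of neighbours from Tapbp down to Psmb9 overlapped. B2m (1445 to 3877 CPM per kb) did not overlap H2-D1 (137 to 249 CPM per kb), whereas H2-K1 (304 to 1697 CPM per kb) overlapped B2m.

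H2-K1 varied most of the 10 in the CD8 table, with a highest level 5.58 times the lowest, followed by Psmb10 (4.19 times) and Nlrc5 (3.67 times). H2-D1 varied least, at 1.82 times. The plot of levels by library shows all 10 members.

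**Figure D1:**
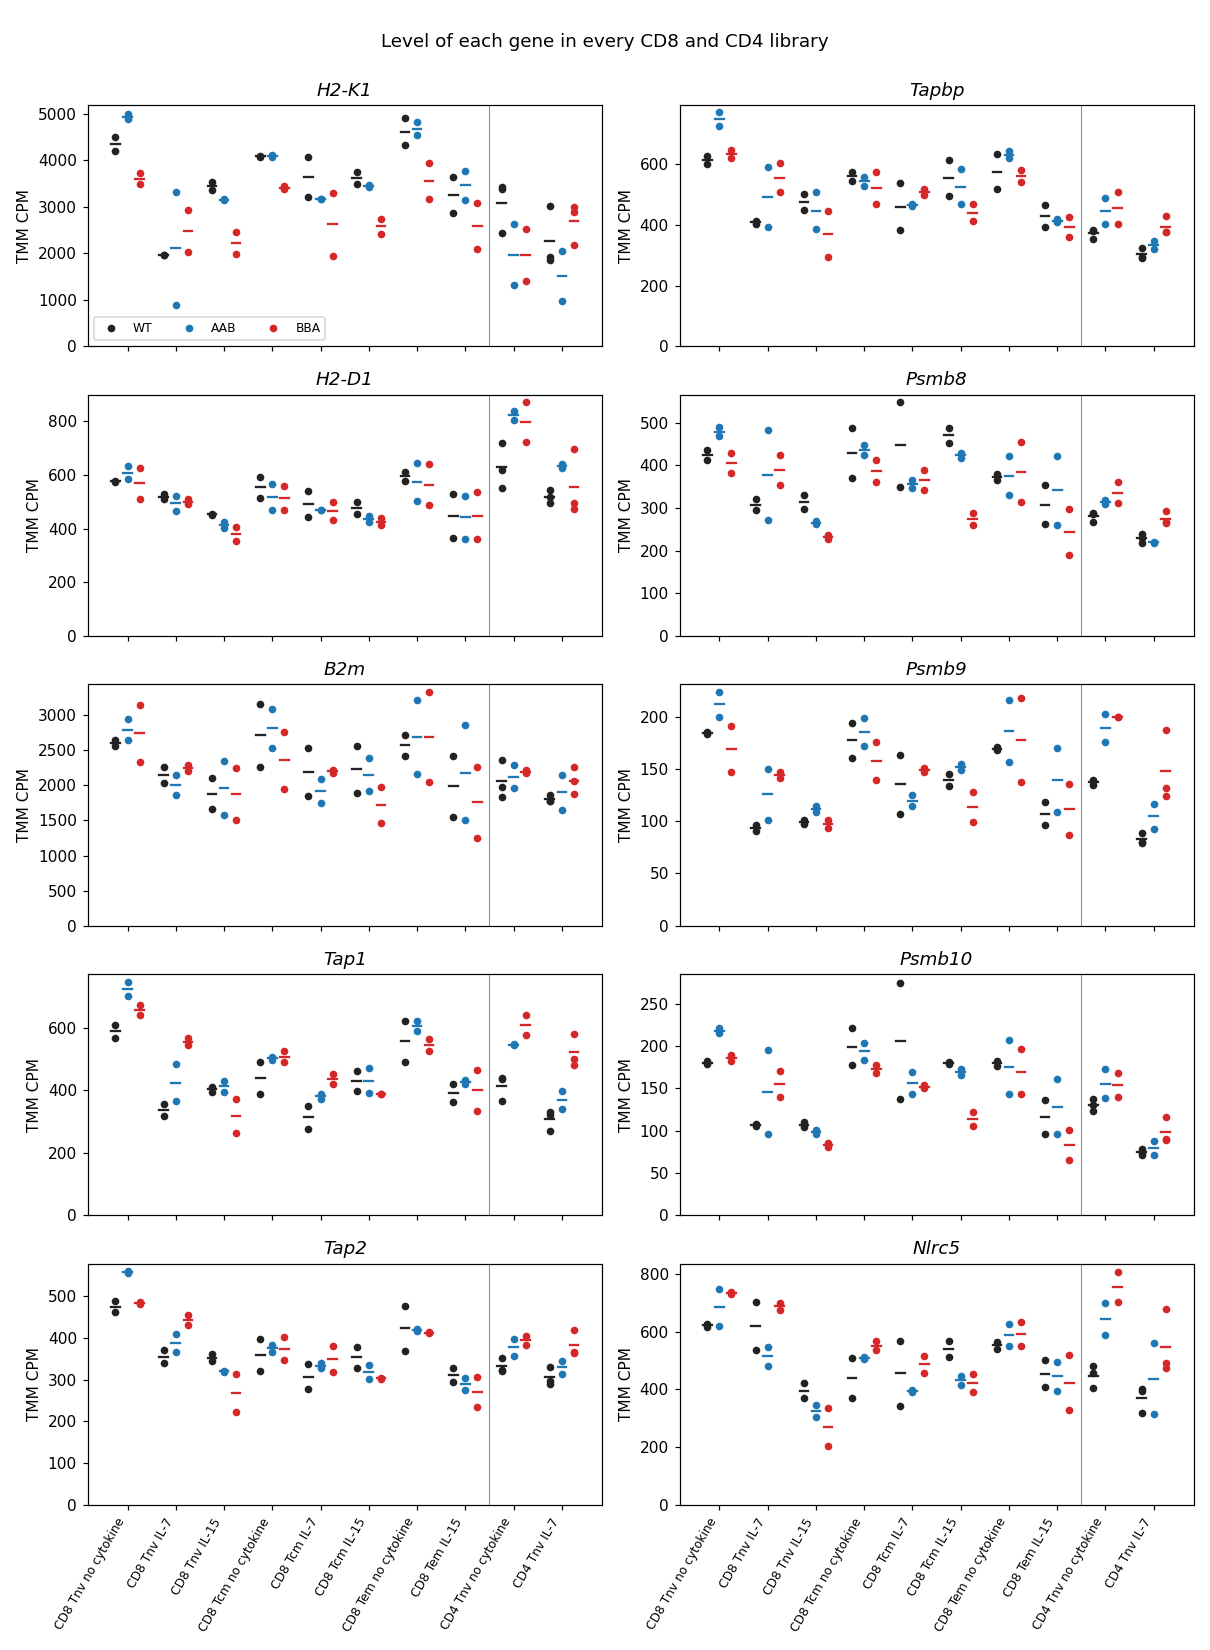
Level of each of the 10 members (y axis, TMM-scaled CPM from 0) in the 8 CD8 and, right of the vertical line, 2 CD4 conditions (x axis); points are libraries coloured by genotype and short bars are group means. In WT CD8 Tnv cells Psmb9 lies at 183 to 186 CPM without cytokine and at 91.0 to 101 CPM with IL-7 or IL-15.

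The first comparison set the class I genes of WT cells cultured with each cytokine against those of cells without cytokine. Since the latter were not cultured, the cytokine and the culture cannot be told apart in any of these responses. The immunoproteasome transcripts Psmb9 and Psmb10 fell in WT CD8 Tnv cells with IL-7 or IL-15 and in WT CD4 Tnv cells with IL-7. Calls came from edgeR's quasi-likelihood test over all genes tested and needed a change above 1.5-fold together with an adjusted p (Benjamini-Hochberg) under 0.05. In CD8 Tnv cells 4 of the 10 genes were called lower with IL-7, against 10.4% of all genes tested, and none was called higher. With IL-15, 3 of the 10 were called lower, against 2.77% of all genes. In CD4 Tnv cells 2 of the 10 were called lower with IL-7, against 7.44%. The IL-7 and IL-15 responses of CD8 Tnv cells share their libraries without cytokine.

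Psmb9, an inducible catalytic subunit of the immunoproteasome, was at 186 and 183 CPM in WT CD8 Tnv cells without cytokine, at 96 and 91.0 CPM with IL-7 and at 101 and 97.0 CPM with IL-15. Both cytokine groups lay below the group without cytokine and close to each other. The log2 fold change was −0.91 (SE 0.0732, adjusted p = 0.000498) with IL-7 and −0.85 (SE 0.0727, adjusted p = 0.00256) with IL-15. In WT CD4 Tnv cells Psmb9 was at 135, 139 and 139 CPM without cytokine and at 78.9, 79.8 and 89.1 CPM with IL-7, again without overlap. The log2 fold change there was −0.73 (SE 0.0744, adjusted p = 0.000132).

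Psmb10, a further inducible catalytic subunit, was at 178 and 183 CPM without cytokine, 108 and 105 CPM with IL-7 and 109.8 and 104 CPM with IL-15 in WT CD8 Tnv cells. Its groups did not overlap, and the log2 fold changes were −0.70 (SE 0.0691, adjusted p = 0.00100) with IL-7 and −0.71 (SE 0.0688, adjusted p = 0.00360) with IL-15. Without WT library 2 of the cells without cytokine the IL-15 call was lost (log2 fold change −0.71, adjusted p = 0.0512). In WT CD4 Tnv cells Psmb10 was at 123, 137 and 130.0 CPM without cytokine and at 73.9, 78.9 and 71.9 CPM with IL-7. The CD4 groups did not overlap either (log2 fold change −0.79, SE 0.0718, adjusted p = 7.02e-05). Psmb8, the remaining inducible subunit, was lower by less than the limit of 1.5-fold, with log2 fold changes of −0.40 for IL-7 and −0.39 for IL-15 in CD8 Tnv cells and −0.29 for IL-7 in CD4 Tnv cells. The adjusted p of Psmb8 was 0.0152, 0.0392 and 0.0153 respectively.

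Tap1, which encodes a chain of the peptide transporter, was at 567 and 608 CPM in WT CD8 Tnv cells without cytokine, 319 and 356 CPM with IL-7 and 396 and 410.4 CPM with IL-15. Both cytokine groups were lower than the cells without cytokine. The call was made for IL-7 (log2 fold change −0.74, SE 0.0928, adjusted p = 0.00224), and for IL-15 the change was under the limit (−0.50, SE 0.0923, adjusted p = 0.0219). For Tap2, which encodes the other transporter chain, the log2 fold change was −0.35 with IL-7 (adjusted p = 0.0172) and −0.39 with IL-15 (adjusted p = 0.0332), under the limit. Nlrc5 was at 616 and 627 CPM without cytokine, 422 and 370.4 CPM with IL-15 and 701 and 537 CPM with IL-7. The IL-15 libraries were lower than those without cytokine, and the IL-7 libraries lay on both sides of them. Nlrc5 was called for IL-15 (log2 fold change −0.61, SE 0.137, adjusted p = 0.0388), and the call was lost without library 1 (−0.60, adjusted p = 0.179) or library 2 (−0.61, adjusted p = 0.194) of the cells without cytokine. Without library 2 of the IL-15 cells the change fell under the limit (−0.54).

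H2-K1 was at 4197 and 4495 CPM in WT CD8 Tnv cells without cytokine, 1961 and 1972 CPM with IL-7 and 3363 and 3524 CPM with IL-15. The IL-7 libraries were far below both other groups (log2 fold change −1.08, SE 0.0986, adjusted p = 0.000737), and both of them belong to a set of libraries with another pattern of H2 genes, described below. The summed level of 4 such H2 genes was 79.5 and 64.3 CPM in the IL-7 libraries and 6.66 to 10.1 CPM in the other WT CD8 Tnv libraries, so IL-7 and this pattern cannot be told apart there. With that sum as a covariate the log2 fold changes for IL-7 were −0.87 for Psmb9, −0.70 for Psmb10, −0.86 for Tap1 and −1.57 for H2-K1 (adjusted p of 0.515 to 0.640), a fit with little information on either term. H2-D1 was at 577 and 574 CPM without cytokine and 509 and 529 CPM with IL-7, a difference that was not called. B2m was at 2559 and 2640 CPM without cytokine, 2037 and 2257 CPM with IL-7 and 2102 and 1662 CPM with IL-15, and was not called in either comparison.

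Markers of other cells moved with IL-7 in WT CD8 Tnv cells. The summed level of 5 MHC class II genes was 10.9 to 27.4 CPM with IL-7 and 158 to 508 CPM without cytokine, that of the B cell markers 8.69 to 15.1 against 54.0 to 134 CPM, and that of the myeloid markers 2.19 to 6.14 against 43.7 to 93.4 CPM. Of the genes tested, 5 of 5 class II, 4 of 4 B cell and 3 of 4 myeloid genes were called lower with IL-7. Their part in the IL-7 result was not tested, and in bulk libraries fewer cells of a type and less RNA per cell cannot be told apart. With IL-15 the B cell markers stood at 43.7 to 124 CPM, over much the same range as without cytokine, and WT library 2 with IL-15 held 327 CPM of CD4 lineage markers against 10.8 CPM in library 1. In WT CD4 Tnv cells the class II genes summed to 10.4 to 15.8 CPM with IL-7 and 20.5 to 34.2 CPM without.

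**Figure D2:**
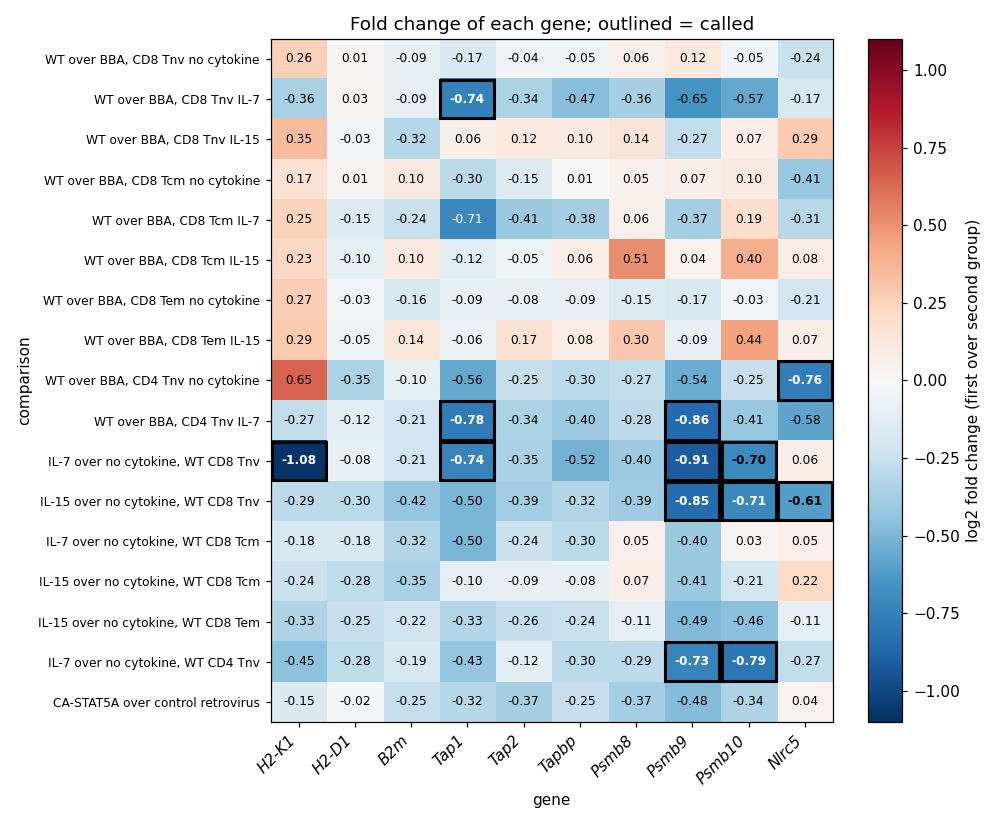
Log2 fold change (number and colour, first group over second) of the 10 members (x axis) in 17 comparisons (y axis); an outlined cell passed the fold and adjusted p limits of edgeR's quasi-likelihood test. All 10 values are negative for IL-15 in WT CD8 Tnv and Tem cells, for IL-7 in WT CD4 Tnv cells and for WT against BBA CD4 Tnv cells with IL-7. The lowest value is −1.08 for H2-K1 with IL-7 in WT CD8 Tnv cells.

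The memory cells showed smaller differences. With IL-15, all 10 log2 fold changes were negative in WT CD8 Tnv (median −0.41, between −0.85 and −0.29) and in Tem cells (median −0.26, between −0.49 and −0.11), and 8 of 10 in Tcm cells (median −0.15). No member was called in Tem cells, where 0.921% of all genes were called lower, and none in Tcm cells with IL-7, where 0.186% were. Both WT Tcm libraries with IL-7 had Y-linked transcripts and those without cytokine did not. IL-7 and sex therefore cannot be told apart in this Tcm comparison. In Tcm cells with IL-15 no gene at all was called (0% of 10768), while 1311 had an unadjusted p under 0.05 by edgeR's quasi-likelihood test. That fit also held the WT Tcm libraries with IL-7, and 0 calls do not show that IL-15 and culture changed nothing. Over the 3 memory comparisons, the nearest to a call was Psmb9 in Tem cells with IL-15, at 168 and 171 CPM without and 118 and 96 CPM with the cytokine (log2 fold change −0.49, adjusted p = 0.0727). The lack of a call in memory cells does not show that they responded less than Tnv cells, and that difference was not tested.

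The other genes of the pathway, taken from lists chosen with earlier results of these data known, moved unevenly. Of 8 constitutive proteasome and proteasome activator genes, 0 were called in any of the 3 Tnv responses, and their median log2 fold change was 0.07 for IL-7 and 0.04 for IL-15 in CD8 cells. Of 5 genes of peptide loading and trimming, Tapbpl, which encodes the peptide editor TAPBPR, was called lower in CD8 Tnv cells with either cytokine, at a log2 fold change of −1.06 for IL-7 and −0.99 for IL-15. Of the tested interferon-induced genes, 11 of 15 were called lower in CD8 Tnv cells with IL-7 and 11 of 15 with IL-15, and 15 of 18 in CD4 Tnv cells with IL-7.

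The second comparison asked whether loss of STAT5 alleles changed these genes. WT was called lower than BBA for Tap1 in CD8 Tnv cells with IL-7, for Tap1 and Psmb9 in CD4 Tnv cells with IL-7 and for Nlrc5 in CD4 Tnv cells without cytokine. No member was called in CD8 cells without cytokine. In CD8 cells 1 of 80 tests of WT against BBA was called, 10 had an unadjusted p under 0.05 and DESeq2 called 3. Over all genes, that unadjusted limit was passed by 999 of 10265 (Tcm without cytokine) to 4852 of 9856 (Tcm with IL-15) per condition. The share of all genes called in the conditions with no called member was 2.75% in Tnv without cytokine, 9.6% in Tnv with IL-15, 0.283% in Tcm without cytokine, 3.08% in Tcm with IL-7, 23.5% in Tcm with IL-15, 0.208% in Tem without cytokine and 1.81% in Tem with IL-15. In CD4 Tnv cells 3 of 20 were called, 13 had an unadjusted p under 0.05 and DESeq2 called 3. Of all genes, 996 of 10154 without cytokine and 2571 of 9412 with IL-7 passed the unadjusted limit.

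Tap1 was the gene called in CD8 cells, in Tnv cells with IL-7, where 1.15% of all genes were called lower in WT than in BBA. It was at 319 and 356 CPM in WT, 483 and 365 CPM in AAB and 544 and 567 CPM in BBA. WT lay below BBA without overlap, with AAB between them. The log2 ratio of WT to BBA was −0.74 (SE 0.136, adjusted p = 0.0440). The call was lost without any 1 of the 4 WT and BBA libraries, at log2 ratios of −0.82 to −0.66 and adjusted p of 0.190 to 0.435. It was also lost with the H2 covariate (−0.66, adjusted p = 0.171).

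In CD4 Tnv cells with IL-7, where 2.89% of all genes were called lower in WT than in BBA, Tap1 was at 271, 332 and 320 CPM in WT, 398 and 339 CPM in AAB and 480.2, 581 and 501 CPM in BBA. The BBA libraries were all above WT and AAB, and the log2 ratio of WT to BBA was −0.78 (SE 0.104, adjusted p = 0.00188). Psmb9 was at 78.9, 79.8 and 89.1 CPM in WT, 117 and 92.8 CPM in AAB and 125, 188 and 132 CPM in BBA. The 3 genotypes did not overlap, and Psmb9 was called lower in WT than in BBA (log2 fold change −0.86, SE 0.157, adjusted p = 0.00965). With the libraries of the other H2 pattern left out, which leaves 1 WT and 2 BBA libraries and assumes that the lone one varies like the others, both calls were kept, at −0.60 (adjusted p = 0.0401) for Tap1 and −0.72 (adjusted p = 0.0191) for Psmb9. All 10 log2 fold changes of WT over BBA were negative here, with a median of −0.37, against −0.36 with 9 of 10 negative in CD8 Tnv cells with IL-7.

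Psmb9 in CD8 Tnv cells with IL-7 was at 96 and 91.0 CPM in WT, 149.9 and 101 CPM in AAB and 147 and 142 CPM in BBA. WT and BBA did not overlap, while the AAB libraries were far apart. The log2 ratio of WT to BBA was −0.65 and missed the limit (adjusted p = 0.1003), and with the replicate number as a block it was called at the same log2 fold change (adjusted p = 0.0306).

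Without cytokine, Nlrc5 was at 481, 456 and 406 CPM in WT CD4 Tnv cells, 589 and 697 CPM in AAB and 702 and 804 CPM in BBA. The groups did not overlap, and WT was called lower than BBA (log2 fold change −0.76, SE 0.122, adjusted p = 0.0250), where 0.768% of all genes were. Leaving out WT library 1 (−0.82, adjusted p = 0.0543) or 2 (−0.77, adjusted p = 0.0914) or BBA library 1 (−0.84, adjusted p = 0.0771) or 2 (−0.66, adjusted p = 0.217) lost the call, as did 1 fit over all CD4 libraries (−0.76, adjusted p = 0.120). Psmb9 in the same libraries was at 135, 139 and 139 CPM in WT and 199.6 and 200.05 CPM in BBA (log2 fold change −0.54, adjusted p = 0.0219), a difference under 1.5-fold. Tap1 was at 440.4, 437 and 364 CPM in WT and 577 and 640.5 CPM in BBA (log2 fold change −0.56, adjusted p = 0.0718).

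In Tcm cells with IL-7, Tap1 was at 350.3 and 277 CPM in WT, 389 and 371 CPM in AAB and 453 and 418 CPM in BBA. The order was the same as in Tnv cells, but the difference of WT from BBA was not called (log2 fold change −0.71, adjusted p = 0.0615), while DESeq2 called it at −0.70. Both WT libraries of that condition and 1 of 2 in AAB and in BBA had Y-linked transcripts. With IL-15, Tap1 stood at 396 and 410.4 CPM in WT and 264 and 373 CPM in BBA Tnv cells. The fitted log2 ratio was 0.06 (SE 0.161, adjusted p = 0.875) on the scaling of its own fit. The CPM values, scaled over the whole CD8 table, stood further apart than that ratio. In Tcm cells with IL-15, 0 of the 10 genes were called, and DESeq2 called none of them either. Psmb8 there was at 487 and 453 CPM in WT and 288 and 261 CPM in BBA (log2 fold change 0.51, adjusted p = 0.00419), and Psmb10 at 181 and 179 CPM in WT and 122 and 106 CPM in BBA (log2 fold change 0.40, adjusted p = 0.0120). Both lay above BBA in WT. The summed level of 4 H2 genes, described below, was 32.0 and 47.7 CPM in these BBA libraries and 9.12 and 9.01 CPM in WT. Genotype and that H2 pattern therefore cannot be told apart there. The fitted fold changes of Psmb8 and Psmb10, 1.43 and 1.32, were under the limit on the scaling of that fit. Their CPM, scaled over the whole CD8 table, stood further apart. Both were called higher in WT with filterByExpr in place of the Jaccard filter, at log2 fold changes of 0.72 (adjusted p = 0.000756) for Psmb8 and 0.61 (adjusted p = 0.00192) for Psmb10, and with no filter. Of 8 constitutive proteasome and activator genes, 3 were called higher in WT in that comparison, namely Psme3 (0.87), Psme2 (0.67) and Psmb5 (0.62), and of 5 loading and trimming genes Erap1 (0.86), the peptide-trimming enzyme, and Canx (0.78), the chaperone calnexin.

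No member was called between AAB cells and either other genotype. None of 80 tests of WT against AAB in CD8 cells was called by edgeR's quasi-likelihood test, 7 had an unadjusted p under 0.05, and DESeq2 called 0. The share of all genes called in either direction was also small in these conditions: in Tnv cells it was 0.164% (no cytokine), 0.256% (IL-7) and 0.908% (IL-15), 0.039%, 0.0589% and 4.45% in the same order in Tcm, and 0.0198% without cytokine and 0.0199% with IL-15 in Tem cells. In CD4 Tnv cells 0 of 20 were called, 5 had an unadjusted p under 0.05 and DESeq2 called 0, against 0.355% of all genes without cytokine and 0.637% with IL-7. AAB against BBA gave 0 of 80 in CD8 cells (12 with an unadjusted p under 0.05) and 0 of 20 in CD4 cells (7), with 0 by DESeq2 in both. The background was 0.523%, 0.148% and 0.0699% in CD8 Tnv cells (no cytokine, IL-7 and IL-15), 0.039%, 0.0884% and 5.84% in Tcm cells, 0.0198% and 0.00997% in Tem cells without cytokine and with IL-15, and 0.0788% and 1.57% in CD4 Tnv cells (no cytokine and IL-7). The smallest adjusted p of a member between WT and AAB was 0.0872, in CD4 Tnv cells without cytokine. WT libraries are shared by the comparisons with AAB and BBA.

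Whether the WT and BBA difference itself changed with the cytokine was tested as an interaction. No member was called in any of 160 interaction tests by edgeR's quasi-likelihood test, 9 had an unadjusted p under 0.05, and DESeq2 called 2. The background of the WT and BBA interactions was 2.46% for IL-7 against no cytokine, 2.42% for IL-15 against no cytokine and 1.05% for IL-15 against IL-7 in CD8 Tnv cells, 0.114%, 7.64% and 0.126% in the same order in Tcm cells, 0.00966% for IL-15 in Tem cells and 1.1% for IL-7 in CD4 cells. For WT and AAB it was 0.293%, 0.318% and 0.0291% in Tnv, 0.00952%, 0.134% and 0.029% in Tcm, 0% in Tem and 0.019% in CD4 cells. In CD8 Tnv cells with IL-7 against no cytokine, the interaction was −0.59 on the log2 scale for Tap1 (adjusted p = 0.0781) and −0.78 for Psmb9 (adjusted p = 0.107), with a median of −0.43 over the 10 genes. For IL-15 against IL-7 it was 0.81 for Tap1 (adjusted p = 0.128). A difference of the genotype effect between cytokines was therefore not shown for these genes. For IL-15 against no cytokine the median over the 10 genes was 0.09.

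Markers of other cells also differed between the genotypes with IL-7. In CD8 Tnv cells the class II genes summed to 10.9 to 27.4 CPM in WT and 76.4 to 117 CPM in BBA, and the B cell markers to 8.69 to 15.1 and 28.9 to 47.6 CPM. In CD4 Tnv cells the class II genes summed to 10.4 to 15.8 CPM in WT and 27.1 to 159 CPM in BBA. Of these lists, 0 of 5 class II and 0 of 4 B cell genes tested were called in CD8 Tnv cells, and 4 of 5 class II and 1 of 3 B cell genes in CD4 Tnv cells. Their part in the differences of Tap1 and Psmb9 was not tested.

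Genes of interferon signaling moved with these differences. In CD8 Tnv cells with IL-7, 8 of 16 interferon-induced genes tested were called lower in WT than in BBA, with a median log2 fold change of −1.62, led by Iigp1 (−3.81), Ifit3 (−3.02) and Rtp4 (−2.60). In CD4 Tnv cells with IL-7 it was 10 of 15, with a median of −1.60. Irf1, a transcription factor of class I promoters, was called lower in WT with IL-7 in both (−1.19 and −1.101). Socs1, an inhibitor of cytokine and interferon signaling, was higher in WT than in BBA in IL-7-treated CD4 Tnv cells (1.01) and in IL-15-treated CD8 Tnv (1.33), Tcm (1.39) and Tem cells (1.54).

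Among other members of the class I chain family, H2-T24 was called lower in WT than in BBA with IL-7, in CD8 (log2 fold change −2.50) and CD4 Tnv cells (−2.09).

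H2-K1 stood apart from the other 9 members. In WT over BBA CD8 cells its log2 fold change was positive in 7 of 8 conditions, between 0.17 and 0.35, and −0.36 in Tnv cells with IL-7. None of these was called. Its levels in groups of the same label could differ widely: it was at 3322 and 894 CPM in AAB CD8 Tnv cells with IL-7, at 3301 and 1939 CPM in BBA Tcm cells with IL-7, and at 1317 and 2622 CPM in AAB CD4 Tnv cells without cytokine. The 20 genes whose levels correlated most strongly with H2-K1 within conditions, of either sign, included 16 on chromosome 17, which holds 5.37% of the 12145 genes compared. They included H2-T3 (r = −0.84), a non-classical class I chain, Dnah8 (r = −0.83), a dynein heavy chain, and Ppil1 (r = 0.76), a peptidyl-prolyl isomerase. The genes were chosen on H2-K1, so these are descriptions.

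The summed level of H2-Q1, H2-Q2, H2-T3 and H2-M2, chosen after their values were seen, split the libraries. It was 32.0 to 208 CPM in 27 of 67 libraries and 1.91 to 23.8 CPM in the other 40, with a limit of 25 CPM set between them. The high set held all BBA CD8 libraries except Tcm IL-7 library 1 and Tnv IL-7 library 2, both WT CD8 Tnv IL-7 libraries, AAB CD8 Tnv IL-7 library 2 and 10 of 15 CD4 libraries of all 3 genotypes. H2-K1 in CD8 libraries was at 894 to 3938 CPM in the high set and 2875 to 4987 CPM in the rest. In CD4 libraries it was at 971 to 2622 CPM in the high set and 2894 to 3425 CPM in the rest, without overlap. After the mean of each condition was taken off, Pearson's r of H2-K1 with this sum was −0.82 over 63 libraries, and that of the other 9 members lay between −0.36 and 0.22. H2-Q1, H2-Q2, H2-T3 and H2-M2 were all among the genes above that correlated most strongly with H2-K1 in these same libraries. The r of H2-K1, its contrast with the other members and the pairs that follow are therefore descriptions and not a test. In the uneven pairs named above, the lower H2-K1 level went with the higher sum each time: 117 against 4.75 CPM in AAB Tnv, 75.6 against 9.62 CPM in BBA Tcm, and 183 against 112 CPM in AAB CD4. Because nearly all BBA CD8 libraries were in the high set, genotype and this pattern cannot be told apart in most CD8 conditions. This holds for every member and not only for H2-K1.

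**Figure D3:**
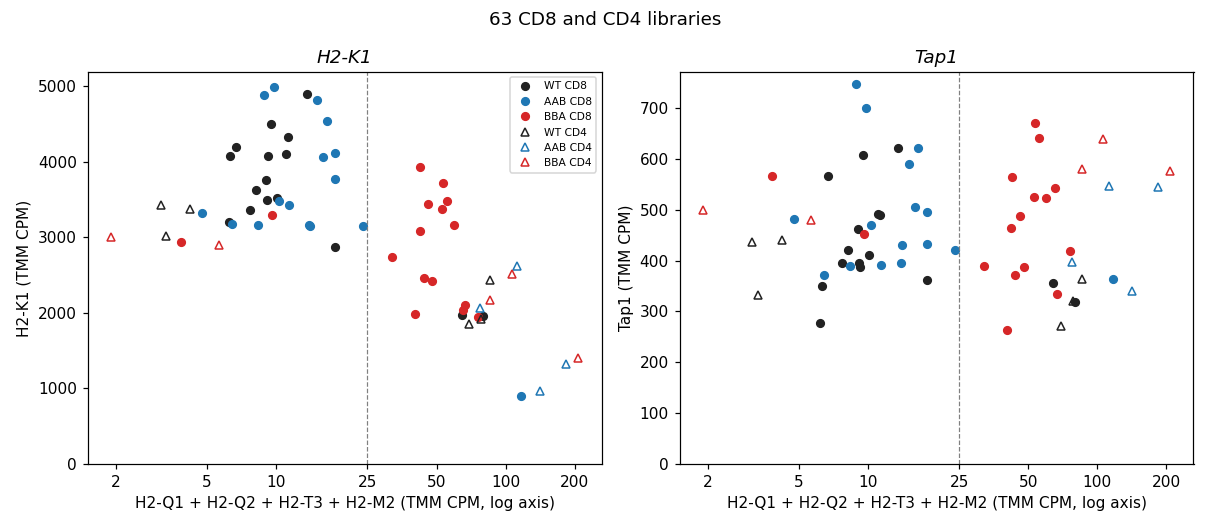
Level of H2-K1 (left) and Tap1 (right), in TMM-scaled CPM on a linear axis from 0, against the summed level of H2-Q1, H2-Q2, H2-T3 and H2-M2 (CPM, log axis) in 63 libraries; colour gives the genotype, filled circles are CD8 and open triangles CD4 libraries, and the dashed line marks 25 CPM. In CD4 libraries H2-K1 lies at 971 to 2622 CPM right of the line and at 2894 to 3425 CPM left of it.

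Cell state without cytokine made no called difference to the members. In WT CD8 cells 0 of 30 tests between Tnv, Tcm and Tem were called by edgeR's quasi-likelihood test, 3 had an unadjusted p under 0.05 and DESeq2 called 0, where 2.78% (Tcm over Tnv), 8.08% (Tem over Tnv) and 1.95% (Tem over Tcm) of all genes were called in either direction. The median log2 fold change of the 10 genes was −0.10 for Tcm over Tnv, −0.06 for Tem over Tnv and 0.12 for Tem over Tcm. The widest was that of Nlrc5 in Tcm over Tnv cells, at −0.52 (adjusted p = 0.239), with 370.5 and 509.6 CPM in Tcm against 616 and 627 CPM in Tnv cells.

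In the libraries labelled as retrovirally transduced CD8+ T cells, 0 of the 10 genes were called between CA-STAT5A and the empty vector, against 6.63% of all genes in either direction, 3 had an unadjusted p under 0.05 and DESeq2 called 0. The log2 fold change was negative for 9 of 10, with a median of −0.28. In each group 1 library had Y-linked transcripts and 1 did not, and no term for sex was fitted. Psmb9 had the smallest adjusted p, at 90.4 and 97.4 CPM with CA-STAT5A and 120.4 and 136 CPM with the empty vector (log2 fold change −0.48, SE 0.115, adjusted p = 0.0604). Psmb10 was at 165 and 153 CPM with CA-STAT5A and at 194 and 201 CPM with the empty vector. H2-K1 was at 3823 and 3773 CPM with CA-STAT5A, between the empty-vector libraries at 3501 and 4795 CPM. The summed level of class II genes was 55.8 to 116 CPM with CA-STAT5A and 824 to 986 CPM with the empty vector, and that of the myeloid markers 1195 to 1363 against 503 to 692 CPM. The part of these markers in the member values was not tested.

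The genes whose level followed the members most closely were ranked over the 48 CD8 libraries among 18320 genes, by Pearson's r with the mean standardised log2 level of the 10 members. The 8 highest were Tapbpl (0.91), Usp25 (0.91), Uba7 (0.89), H2-M3 (0.89), Tmx1 (0.89), Bst2 (0.89), Uggt1 (0.89) and Il2rg (0.88). Tapbpl encodes a peptide editor, H2-M3 a non-classical class I chain, Bst2 the antiviral protein tetherin and Il2rg the shared chain of the IL-7 and IL-15 receptors. The members' own r with that mean ran from 0.70 for H2-K1 to 0.92 for Psmb9. The points share cytokine, state, genotype and depth, and no test is given.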

How the data were processed

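The members and gene lists were chosen with earlier results of these data known. The authors aligned single-end reads with TopHat2 and counted them per gene with HTSeq; the deposited values are raw counts. The labels name mm9 and the study's methods name mm10, and the annotation and strand setting are not given in the sources used here. Rows of htseq-count that name no gene, 67.0% to 68.4% of the retrovirus table, were left out.

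Each condition was fitted with its 3 genotypes in edgeR 4.0.16 (R 4.3.3), by the quasi-likelihood test with TMM scaling, as were the WT responses, WT states, retrovirus libraries and interactions. Genes were kept by a Jaccard-index filter written after HTSFilter (100 thresholds from 1 to 200, loess span 0.3, thresholds taken 40.2 to 117), which left 9412 to 10768 genes. Calls needed more than 1.5-fold and a Benjamini-Hochberg adjusted p under 0.05. The method was tested on simulated data. Each of 38 replicate pairs differed by more than sampling noise (chi-square divided by its degrees of freedom, 5.75 to 101).

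All 10 members are named in every comparison, and of each gene list at most the 3 called genes of largest fold change in each direction. Correlations used log2 CPM with a prior count of 2. Same-numbered libraries deviated together (each r over 0.1) in 5 of 8 CD8 and in both CD4 conditions, where the numbers were taken to pair the libraries. They also did so across WT CD8 states (r 0.54 to 0.70). The same held across IL-15 and no cytokine in Tcm (0.29 to 0.64) and Tem cells (0.36 to 0.80). The main tests did not use this pairing, and the replicate block was run only as an alternative. Alternatives were DESeq2 1.42.0 with its size factors, filterByExpr, no filter, Bonferroni adjustment, a 2-fold limit, 1 fit over a lineage, a replicate block and leaving out each library. An H2-gene covariate and leaving out libraries above 25 CPM were added after the data were seen. A pair of CD4 libraries whose title and characteristics disagree went into no comparison.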

Additional observations from a re-analysis of the deposited data

Results flagged for a closer look

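The CD4 library titled AAB, whose title and characteristics disagree on the cytokine and which entered no comparison, had a summed level of H2-Q1, H2-Q2, H2-T3 and H2-M2 of 182 CPM. It was singled out because this exceeds the highest WT CD4 library, at 85.9 CPM. The value lay within the range of the AAB CD4 libraries that were compared, 77.7 to 183 CPM. Its H2-K1 was at 1359 CPM. The CD4 library titled BBA with the same disagreement had a sum of 4.002 CPM and H2-K1 at 3600.3 CPM.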

How the results depend on the processing

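No called change of a member reversed its direction in the alternatives run. The direction of changes that were not called was not followed. The 1 call of WT against BBA in CD8 cells became 3 with filterByExpr, 5 with no filter, 3 with DESeq2, 3 with 1 fit over the lineage, and 0 with Bonferroni adjustment, a 2-fold limit or the H2 covariate. The 3 calls in CD4 cells became 0 with Bonferroni adjustment and 0 with a 2-fold limit. The 9 calls of the cytokine responses became 2 with Bonferroni adjustment, 1 with a 2-fold limit and 4 with the H2 covariate. With no filter, AAB against BBA in CD8 cells and WT against AAB in CD4 cells each gave 1 call in place of 0. The 0 calls of the interactions became 4 with no filter, 2 with DESeq2 and 1 with 1 fit over the lineage. The causes were not tested.

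Leaving out 1 library at a time gave 0 to 4 calls for WT against BBA in CD8 cells: 0 without any of the WT or BBA Tnv IL-7 libraries, 2 without either AAB Tnv IL-7 library, 4 without WT Tcm IL-7 library 1 and 3 without library 2. It gave 2 to 3 for WT against BBA in CD4 cells, 7 to 10 for the cytokine responses, 0 to 1 for WT against AAB in CD8 cells (1, Psmb10, without WT Tcm IL-7 library 2), 0 to 2 for cell states (2 without WT Tcm library 2), 0 to 3 for interactions (3 without WT Tcm IL-7 library 2) and 0 for the rest.

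With the replicate block the count for WT against BBA in CD8 cells was 2, by Psmb9, and that for interactions 1 (Psmb9 with IL-7 against no cytokine in CD8 Tnv cells, log2 difference −0.80, adjusted p = 0.0356), a fit in which the numbers did not pair the libraries; all 13 calls were kept. No paired analysis was possible because only 1 retrovirus pair carries a shared replicate number in the labels. Contrasts with no library at or below 25 CPM in a group, such as WT CD8 Tnv cells with IL-7, could not be computed for that alternative.

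With 2 or 3 libraries a group, a missing call does not show equal levels. That groups did not overlap is a description and not a test. So are the counts of members with an unadjusted p under 0.05, because genes outside the members passed that limit in every comparison. CPM of H2-K1 and H2-D1 depend on how reads shared between class I genes were counted.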
